A study of Mus musculus with 48 samples.

Results

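The step from day 8 to week 2 after birth was examined in mouse ileum, the last stretch of the small intestine, across all genes of the deposited table. The comparison was defined by sample labels alone and takes 6 of the 48 samples of the series, 3 labelled ileum at week 2 and 3 labelled ileum at day 8. All were from C57Bl/6J mice, with no engineered allele, treatment or agent named for either age. Pups stayed with the dam until day 21, so both groups were suckling, and mice of both sexes were used. Each sample was total RNA from a 2 cm piece of the whole bowel wall taken where the ileum meets the caecum, so it held epithelium, muscle, nerves, vessels and immune cells together. In such a piece, fewer cells of a type and less RNA per cell cannot be told apart. The labels give the housing as standard germ-free, and whether the pups carried microbes was not settled from them. Nothing in the labels ties a sample to a named animal or litter, so p-values measure the spread between samples. That spread was estimated jointly over the 40 libraries fitted, of both regions and other ages too, not from these 6 alone. Apart from that, the 6 duodenum samples of the same ages, from the first stretch of the small intestine, served to ask where the ileum differed.

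The suckling ileum takes up milk proteins whole. Its enterocytes bear the receptors cubilin and amnionless and the adaptor Dab2 at the surface, and large lysosomes beneath it digest what was swallowed. Crypts deepen over the suckling weeks, and Paneth cells at their base begin to secrete defensins and lysozyme. Blood glucocorticoids climb before weaning, and the switch from lactase to sucrase follows at weaning. The series was built to catalogue these weeks, in which newborn bowel is liable to necrotizing enterocolitis.

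Library totals were 31141953, 39548914 and 27323912 estimated counts at week 2, and 17687321, 24551171 and 30670271 at day 8. Mitochondrial transcripts took 13.4%, 14.5% and 13.4% of counts at week 2, but 32.7%, 18.0% and 23.7% at day 8. Day 8 library no. 1 stood apart from the rest: it had the smallest total and the highest mitochondrial share. Its Spearman correlation was 0.976 and 0.977 with the other day 8 libraries and 0.960 to 0.964 with the week 2 libraries, against 0.976 to 0.989 for pairs that did not contain it. Of the 13 transcripts encoded by mitochondrial DNA, 12 fell, and 1 did when library no. 1 of day 8 was left out. Of 2265 genes with transcripts of up to 1000 bases 2.25% rose and 6.75% fell, with a median log2 fold change of -0.13. Of 6560 over 4000 bases 13.3% rose and 4.44% fell, with a median of 0.05. Of the 6 libraries, 1 (week 2 no. 3) carried Y-linked Ddx3y RNA and the other 5 carried Xist, the RNA of female cells. The mitochondrial share did not overlap between the ages. With that share as a covariate, an alternative chosen after seeing the data, 149 genes were called in the ileum (an adjusted p under 0.05 by edgeR), 100 higher and 49 lower, against 3037 without it. With a sex index as a covariate 2928 were. The part that transcript length plays in the results was not tested.

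**Figure D1:**
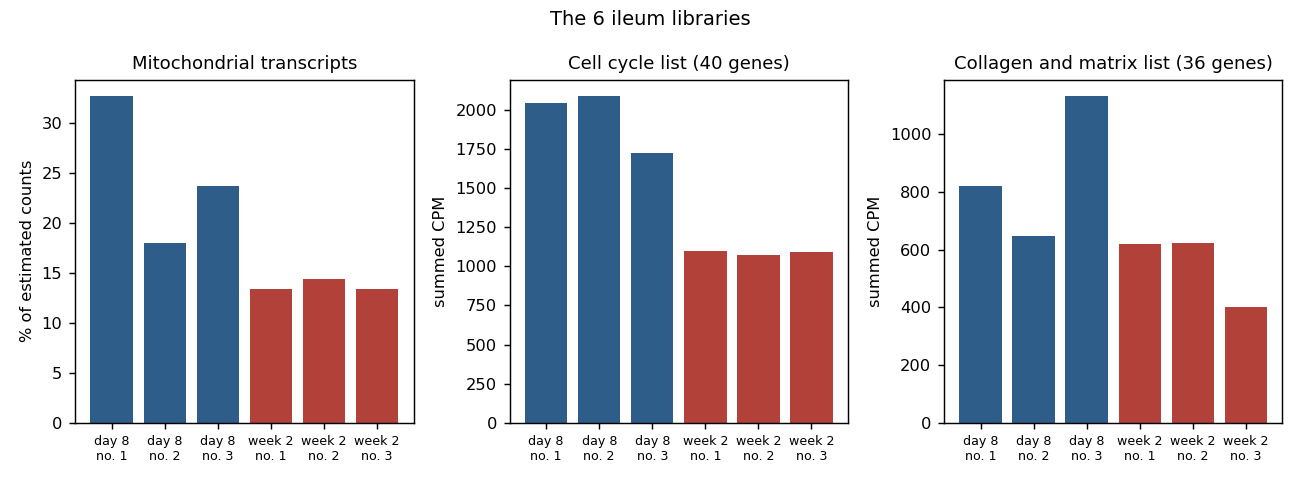
Percentage of estimated counts from mitochondrial transcripts (left), and summed CPM (counts scaled to library size) of the cell cycle list (middle) and of the collagen and matrix list (right), 1 bar per ileum library. Day 8 no. 1 has the highest mitochondrial share at 32.7%, all 3 day 8 libraries lie above all 3 week 2 libraries for the cell cycle list, and collagen is highest in day 8 no. 3.

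The samples carried some marks of distal bowel. Levels are given in CPM, the usual counts per unit of library size, here after TMM scaling. Pdx1, a transcription factor of the proximal gut, lay at 0.0675 to 0.275 CPM in the 6 ileum libraries and at 3.96 to 18.2 CPM in the 6 duodenum libraries. Fabp6, the ileal bile acid binding protein, lay at 1.79 to 42.4 CPM in ileum and at no more than 0.0673 CPM in duodenum. Other bile acid genes set the regions apart less clearly. Slc51a lay at 132 to 303 CPM in ileum and 66.5 to 148 CPM in duodenum. Slc51b lay at 25.9 to 46.2 CPM in ileum and 24.2 to 54.8 CPM in duodenum. Slc10a2 was low in both, at 0.966 to 1.75 CPM in ileum and 0.202 to 0.912 CPM in duodenum. Of 18 markers of caecum and colon, 7 had no count in any of the 6 ileum libraries, among them Hoxa13, Hoxb13 and Hoxd13. Others of that list were expressed in all 6, such as Slc26a3 at 138 to 205 CPM and Muc3 at 105 to 227 CPM. Mettl7b lay at 49.7 to 133 CPM and rose (log2 fold change 0.91, edgeR adjusted p = 0.00216). Whether a piece held any caecum was not tested. Acinar pancreas markers summed to 26.4 to 39.5 CPM at week 2 and 19.2 to 23.3 CPM at day 8, with Prss1 and Amy2b at 0.

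By edgeR's quasi-likelihood test, 3037 of 21617 genes (14.0%) were called between the ages, at an adjusted p under 0.05. Of these 1922 were higher at week 2 (8.89% of genes tested) and 1115 were lower (5.16%). Calls beyond 2-fold numbered 271 higher (1.25%) and 397 lower (1.84%), so the falls were fewer but larger. The median log2 fold change over all genes was 0.0023, where 1 stands for a 2-fold rise and -1 for a 2-fold fall. These counts come from the 40 libraries present in the authors' normalized tables. Fitting all 48 libraries, 2 of which go against their region labels, called 417 of 20901 genes (2.00%). Those were 296 higher (1.42%) and 121 lower (0.579%), and all 417 had been called with the same sign. Left without day 8 library no. 1, the test called 627 genes, 358 higher and 269 lower, and these too were all among the 3037 with the same sign. Without week 2 no. 1, no. 2 or no. 3 it called 1618, 1997 and 1389.

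Genes were named by a rule from the extremes and from 46 gene lists, which gave 131 named genes called in the ileum. Of these 56 were also called without day 8 library no. 1, and 19 were called under every alternative tried. The 19 were 5 sterol and lipid genes (Abcg1, Abcg5, Abcg8, Mexis and Idi1), 4 genes that glucocorticoids induce (Per1, Sgk1, Errfi1 and Cdkn1a), and Zg16, Adamts15, Gal3st2, Apol10a, Defa30, Nr1i2, Plk3, Plod2, Cldn1 and Fabp2. With the mitochondrial share as a covariate 28 of the 131 were called. Each list count below is to be read beside the shares over all genes, 8.89% called higher and 5.16% called lower.

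**Figure D2:**
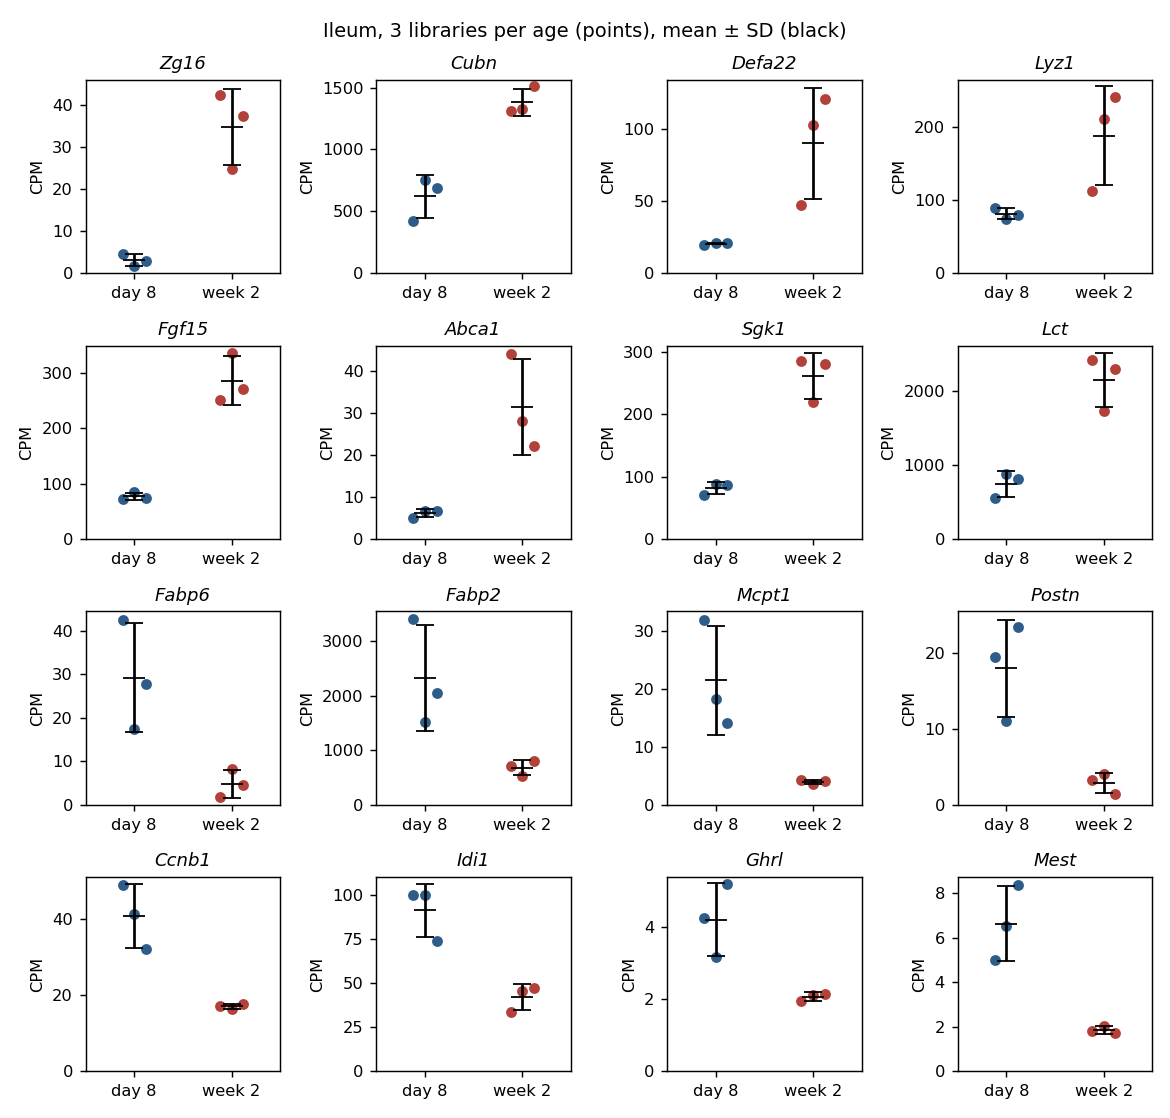
CPM of 16 genes in each ileum library (points), with mean ± SD over 3 libraries per age (black), on linear axes from 0. The ages do not overlap in any of the 16 genes. The upper 2 rows are genes that rose and the lower 2 rows genes that fell.

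The largest rise among the named genes was that of Zg16, a lectin that goblet cells secrete with mucus and that binds bacterial cell walls. The 3 day 8 libraries held 4.57, 1.86 and 2.98 CPM, and those of week 2 held 42.5, 24.9 and 37.4 CPM. Every week 2 library lay far above every day 8 library, and the log2 change was 3.51 ± 0.47 (SE, edgeR adjusted p = 9.71e-05). Gal3st2, a sulfotransferase that adds sulfate to galactose on mucin glycans, rose beside it. It stood at 169.7, 101 and 119 CPM at week 2, against 20.5, 29.8 and 25.5 CPM at day 8, a log2 change of 2.36 ± 0.32 (SE, edgeR adjusted p = 9.71e-05). Neither overlapped between the ages.

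Adamts15, a secreted metalloprotease, went from 0.716, 0.979 and 1.24 CPM at day 8 to 7.45, 4.39 and 6.15 CPM at week 2 (log2 fold change 2.58 ± 0.44 SE, edgeR adjusted p = 0.000397). Apol10a, of the apolipoprotein L family, went from 8.59, 6.24 and 9.12 CPM to 42.4, 31.9 and 37.4 CPM (2.22 ± 0.30 SE, edgeR adjusted p = 9.71e-05). Both were called whichever library was left out. Cyp3a11, a cytochrome P450 that oxidizes drugs and bile acids, had a log2 change of 2.48 ± 0.65 (SE, edgeR adjusted p = 0.0108), and 2.48 without day 8 library no. 1, where it was no longer called. Its relative Cyp3a25 rose by 1.39 ± 0.32 (SE, edgeR adjusted p = 0.00375) and was called whichever of the 6 libraries was left out. Nr1i2, the receptor PXR that switches on Cyp3a genes, rose by 0.68 ± 0.15 (SE, edgeR adjusted p = 0.00339), from 53.4, 51.4 and 47.4 CPM to 82.6, 74.0 and 86.9 CPM. Among 41 genes of cytochrome P450 and conjugation enzymes, 4 rose and 2 fell, close to the share of all genes. Pm20d1, an enzyme that joins fatty acids to amino acids, spread from 53.2 to 325 CPM at week 2, and its call was lost without any 1 library other than week 2 no. 3.

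Among non-overlapping genes with a mean of at least 5 CPM in the higher age, the largest fall was that of Ppef1, a calcium-binding protein phosphatase known from sensory neurons. It went from 6.55, 8.03 and 10.02 CPM at day 8 to 1.60, 0.443 and 1.01 CPM at week 2, a log2 change of -3.03 ± 0.50 (SE, edgeR adjusted p = 0.000337). With all 48 libraries its adjusted p by edgeR was 0.0967, and it was not called. Postn, the matrix protein periostin, fell from 19.6, 11.04 and 23.5 CPM to 3.31, 4.03 and 1.40 CPM (-2.61 ± 0.53 SE, edgeR adjusted p = 0.00167). Other large falls were in the mast cell proteases Mcpt1 and Mcpt2, the matrix genes Sulf1 and Efemp1, the bile acid binding protein Fabp6, the lysophospholipid transporter Mfsd2a and the transcript BB365896. The calls of Sulf1, Efemp1, Fabp6 and Mfsd2a were lost without day 8 library no. 1, at log2 values of -1.92, -1.96, -2.21 and -2.02. Each was lost without other single libraries too, while Mcpt1, Mcpt2 and BB365896 were called each time.

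Genes that carry cholesterol out of the cell rose together. Abcg5 and Abcg8 form the transporter that returns sterols from the enterocyte to the gut lumen, and Abca1 and Abcg1 hand cholesterol to lipoproteins. All of these are targets of the liver X receptors, which sense oxidized sterols. Abcg8 stood at 220.3, 184 and 193 CPM at week 2, against 63.6, 77.2 and 76.8 CPM at day 8, a log2 change of 1.46 ± 0.23 (SE, edgeR adjusted p = 0.000195). Its partner Abcg5 moved in step, from 92.4, 98.7 and 97.6 CPM to 242, 224 and 206 CPM (1.22 ± 0.19 SE, edgeR adjusted p = 0.000195). The 3 libraries of an age lay close together in both genes, with a wide gap between the ages.

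Abca1 went from 5.12, 6.82 and 6.68 CPM to 44.2, 28.1 and 22.3 CPM (log2 fold change 2.33 ± 0.54 SE, edgeR adjusted p = 0.00472). Abcg1 went from 1.71, 1.49 and 1.63 CPM to 7.34, 7.87 and 5.17 CPM (2.08 ± 0.34 SE, edgeR adjusted p = 0.000267). Mexis, a long noncoding RNA gene near Abca1 that liver X receptors induce in macrophages, rose by 1.83 ± 0.29 (SE, edgeR adjusted p = 0.000202). A list of 12 sterol export and liver X receptor genes was drawn up after these values had been seen, so its count describes and supports nothing. In it 8 rose, none fell and the median log2 fold change was 0.97. Without day 8 library no. 1, 4 of the 12 were called, and Abca1 had a log2 value of 2.21 and missed the threshold.

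Cholesterol synthesis went the other way. Of 21 enzymes and regulators of the pathway, 8 fell and none rose, with a median of -0.47 against 0.0023 over all genes. Idi1, which isomerizes the isoprenoid building block, fell from 99.6, 99.97 and 73.7 CPM to 33.3, 45.5 and 47.1 CPM (log2 fold change -1.12 ± 0.20 SE, edgeR adjusted p = 0.000642). Hmgcs1, which makes the HMG-CoA that feeds the pathway, went from 150.3, 187 and 138 CPM to 78.4, 107 and 112 CPM (-0.67 ± 0.18 SE, edgeR adjusted p = 0.00908). Sqle, which epoxidizes squalene, and Nsdhl, a late demethylating enzyme, had log2 fold changes of -0.95 and -0.51 (edgeR adjusted p = 0.0243 and 0.0228). Idi1 was called whichever library was left out. The list count fell to between 1 and 5 when any 1 of the 6 libraries was dropped. Hmgcs1 was not called without week 2 no. 1 or without day 8 no. 2, and its values ran from -0.80 to -0.54. Sqle and Nsdhl lost their calls without either of those libraries or day 8 no. 1, and Sqle without week 2 no. 3.

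The promoter of Hmgcs1 is shown because it holds the sterol response element read by SREBP-2, the activator of this pathway. The 250 bases before the gene's start, chr13:119690101-119690350 on the plus strand of GRCm38.p6 in RefSeq, carry the element TCACCCCAC in capitals. The letters were searched on both strands. They occurred in 1 of the 16 windows found for the list, 6.25%, and in 0.496% of 32851 mouse promoter windows of the same length.
Hmgcs1: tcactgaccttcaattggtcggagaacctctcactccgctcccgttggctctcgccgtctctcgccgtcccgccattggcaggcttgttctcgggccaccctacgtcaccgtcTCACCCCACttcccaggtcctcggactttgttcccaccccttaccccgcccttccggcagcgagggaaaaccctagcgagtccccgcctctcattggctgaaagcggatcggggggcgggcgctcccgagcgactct

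Genes that respond to glucocorticoids were among the steadiest rises. Sgk1, a kinase that keeps sodium channels and transporters at the cell surface, went from 70.2, 88.2 and 86.6 CPM at day 8 to 285, 219 and 280.1 CPM at week 2. The log2 change was 1.68 ± 0.26 (SE, edgeR adjusted p = 0.000195). Per1, a clock gene that glucocorticoids induce directly, went from 8.87, 12.6 and 13.0 CPM to 36.9, 30.5 and 33.2 CPM (1.54 ± 0.23 SE, edgeR adjusted p = 0.000151). Errfi1, a brake on the epidermal growth factor receptor, and Cdkn1a, the cell cycle inhibitor p21, rose by 0.95 ± 0.19 and 0.86 ± 0.18 (SE, edgeR adjusted p = 0.00108 and 0.00166). No library of week 2 overlapped with day 8 in any of these 4 genes.

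Of the 20 genes of the glucocorticoid list 5 rose, against 8.89% of all genes called higher, and none fell. The fifth was the mineralocorticoid receptor Nr3c2 (0.64, edgeR adjusted p = 0.00596). Nr3c2 was not called without week 2 no. 3 or day 8 no. 1. The count stayed between 4 and 6 when each library was left out, and was 4 with all 48 libraries. Others of the list were not called: Tsc22d3, the anti-inflammatory GILZ, had 0.58 (edgeR adjusted p = 0.0863), and Fkbp5, a chaperone of the receptor, had -0.50 (edgeR adjusted p = 0.45). The receptor Nr3c1 itself stood at means of 136 CPM at week 2 and 117 CPM at day 8 (log2 fold change 0.22, edgeR adjusted p = 0.138).

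Per1 also belongs to the clock. Of 19 clock genes, 7 rose and none fell, and the risers included Per1, Cry2, Tef, Bhlhe40, Per2 and Npas2. Cry2, a repressor of the clock, went from 11.7, 17.3 and 17.9 CPM to 37.4, 35.2 and 32.1 CPM (log2 fold change 1.15 ± 0.18 SE, edgeR adjusted p = 0.000202). The core activators Arntl and Clock had log2 values of 0.11 and -0.00035, and Dbp, the usual marker of clock phase, had 0.11, none of them called. The hour at which the mice were killed was not used here. Without day 8 library no. 1, 2 of the 19 were called.

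Per1 is shown for its E-box, CACGTG, the site bound by the clock proteins CLOCK and BMAL1, in capitals in the 250 bases before 1 of the gene's 2 listed starts, chr11:69098699-69098948 on the plus strand of GRCm38.p6 in RefSeq. The hexamer is its own reverse complement. It occurred in 28.6% of 21 windows of clock genes and in 6.02% of all 32851 windows.
Per1: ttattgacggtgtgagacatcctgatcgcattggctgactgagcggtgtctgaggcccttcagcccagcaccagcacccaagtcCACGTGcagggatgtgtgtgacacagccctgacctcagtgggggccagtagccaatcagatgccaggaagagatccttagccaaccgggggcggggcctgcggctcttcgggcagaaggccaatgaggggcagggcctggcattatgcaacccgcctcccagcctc

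Immediate early genes, which cells switch on within minutes of a stimulus, formed a further list drawn up after their values had been seen. Of 14, 7 rose and none fell. Plk3, a stress kinase, went from 3.30, 6.18 and 6.43 CPM to 15.3, 15.8 and 17.8 CPM (log2 fold change 1.60 ± 0.27 SE, edgeR adjusted p = 0.000331). Zfp36, which shortens the life of inflammatory messengers, rose by 0.96 and the growth regulator Klf6 by 0.76 (edgeR adjusted p = 0.000517 and 0.00084). Fos went from 7.27, 13.9 and 10.4 CPM to 41.2, 27.1 and 26.5 CPM (1.57 ± 0.40 SE, edgeR adjusted p = 0.00952). Fos was not called without week 2 no. 1 or day 8 no. 1. The list held 4 and 3 calls in those fits. How long dissection took is not given in the labels, and its part was not tested.

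Many Paneth cell genes rose. Of 28 tested, 17 rose and 2 fell, and the median log2 fold change was 1.19 against 0.0023 over all genes. Defa22, an alpha-defensin that kills bacteria in the crypt, went from 19.9, 20.9 and 20.7 CPM at day 8 to 47.0, 103 and 121 CPM at week 2 (log2 fold change 2.13 ± 0.37 SE, edgeR adjusted p = 0.000556). Week 2 library no. 1 was the lowest of its age in Defa22, Defa21, Defa30, Defa38 and Defa29. The day 8 libraries of Defa22 differed from each other by under 1 CPM.

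Defa30 went from 38.1, 22.5 and 32.3 CPM to 54.8, 105 and 129 CPM (1.64 ± 0.31 SE, edgeR adjusted p = 0.000851). Defa38, rarer, went from 0.661, 0.439 and 0.730 CPM to 2.35, 6.31 and 5.76 CPM (2.97 ± 0.52 SE, edgeR adjusted p = 0.000807). Alpha-defensin genes are near-identical copies, so how the authors' estimates split reads between them is uncertain. Lyz1, the lysozyme of Paneth granules, has the close relative Lyz2 and went from 89.4, 74.7 and 79.6 CPM to 113, 211 and 241 CPM (1.21 ± 0.32 SE, edgeR adjusted p = 0.0106). The lectin Itln1 rose by 1.26 (edgeR adjusted p = 0.0147). Neither was called without week 2 no. 3 or day 8 no. 1, nor Itln1 without day 8 no. 3.

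Not every defensin moved. Defa24, the most abundant of the list at means of 377 CPM at week 2 and 354 CPM at day 8, had 0.09 (edgeR adjusted p = 0.868), and Defa17 had -0.36 (edgeR adjusted p = 0.476). Mmp7, the protease that activates prodefensins, had 0.20 (edgeR adjusted p = 0.674). The members that fell were Mptx1 and Mptx2, secreted pentraxins of this lineage, by -1.21 and -1.18 (edgeR adjusted p = 0.00416 and 0.0446). The summed level of the list overlapped between the ages, at 1213 to 2623 CPM at week 2 and 936 to 1539 CPM at day 8. Rises numbered 8 without week 2 no. 3, 10 without day 8 no. 1 and 6 with all 48 libraries. They numbered 3 with the mitochondrial share as a covariate, and limma on the authors' normalized values called 7 with 1 added and 3 with 0.1 added. Mptx1 was not called without day 8 no. 1, and Mptx2 was called only when day 8 no. 2 was the library left out.

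Goblet cell genes rose in part. Of 21 tested 5 rose and none fell: Zg16, the large ferlin Fer1l6 (log2 fold change 0.85, edgeR adjusted p = 0.0172), the membrane mucin Muc13 (0.57, adjusted p = 0.0229), the protease Capn8 and Bcas1. The gel-forming mucin Muc2 (0.21, edgeR adjusted p = 0.692), Clca1 (0.54, adjusted p = 0.148) and Fcgbp (0.42, adjusted p = 0.219), which make up the bulk of mucus, were not called. With each library left out in turn the count was 1 to 3, and Zg16 was called each time. Among the Reg lectins 1 of 7 was called, Reg3g, which kills Gram-positive bacteria. It read 7.64, 16.5 and 6.25 CPM at week 2, against 4.79, 2.90 and 3.34 CPM at day 8 (1.495 ± 0.49 SE, edgeR adjusted p = 0.0376), and the call held only with week 2 no. 3 as the library left out.

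Hormone cells gave 2 falls and no rise among 22 genes, not far from the 5.16% of all genes called lower. Ghrl, the hunger hormone ghrelin, went from 4.24, 3.17 and 5.19 CPM to 1.93, 2.11 and 2.15 CPM (log2 fold change -1.03 ± 0.30 SE, edgeR adjusted p = 0.0199). Gcg, the precursor of the incretin GLP-1, had -0.62 (edgeR adjusted p = 0.0496). Neither was called without day 8 no. 1, at -1.04 for Ghrl and -0.54 for Gcg, nor without week 2 no. 1 or no. 2. Ghrl was lost also without day 8 no. 3 and Gcg without day 8 no. 2. Peptide YY, cholecystokinin and neurotensin genes (Pyy, Cck and Nts) were not called. No tuft cell gene of 13 and no crypt stem cell gene of 15 was called by edgeR. The stem cell list had 11 negative values and a median of -0.18, with the RNA-binding protein Msi1 lowest by p at -0.42 (edgeR adjusted p = 0.138).

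Genes of dividing cells fell in a block. Of 40 cell cycle genes, 26 fell, none rose, and all 40 had negative log2 values, from -1.34 to -0.27 with a median of -0.81. In 37 of the 40 every week 2 library lay below every day 8 library, against 15.6% of all genes. Birc5, the survivin that guides chromosome separation, went from 36.5, 28.0 and 25.4 CPM to 14.1, 13.4 and 13.0 CPM (log2 fold change -1.14 ± 0.18 SE, edgeR adjusted p = 0.000221). Tyms, which makes thymidylate for DNA, fell by 1.13 ± 0.19 on the log2 scale (SE, edgeR adjusted p = 0.00033). Mki67, the common marker of cycling cells, read 274, 332 and 277 CPM at day 8 and 159, 149 and 151 CPM at week 2 (-0.94 ± 0.22 SE, edgeR adjusted p = 0.00482).

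The genes of mitosis that fell included Ttk (-1.34), Ube2c (-1.13), Ccnb1 (-1.26), Bub1, Cenpe, Cenpf, Aurka and Kif11. Of the 6 genes of the Mcm helicase that licenses replication origins, Mcm7 was called at -0.73 (edgeR adjusted p = 0.0255), and Mcm2, Mcm3, Mcm4, Mcm5 and Mcm6 had values from -0.62 to -0.37 that were not. No difference between mitotic and replication genes was tested. The summed list stood at 1074 to 1099 CPM at week 2 and 1726 to 2088 CPM at day 8. Without day 8 library no. 1, 17 of the 40 fell, and with the mitochondrial share as a covariate 2 did. With all 48 libraries none of the 40 was called by edgeR. There Birc5, Tyms, Ttk and Ube2c had log2 values of -1.16, -1.15, -1.36 and -1.14, close to those above. These 4, Ccnb1 and Mki67 were called whichever library was left out.

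Ube2c, the enzyme that marks cyclins for destruction, and Ttk, the spindle checkpoint kinase, are shown because CCAAT boxes, bound by the factor NF-Y, recur in promoters of mitotic genes. Capitals mark CCAAT or its reverse complement ATTGG in the 250 bases before the start. The Ube2c window is chr2:164769679-164769928 and the Ttk window chr9:83834439-83834688, both on the plus strand of GRCm38.p6 in RefSeq. Ube2c held 6 matches, 2 of which overlap in a palindrome, and Ttk held 2. The box occurred in 82.9% of the 35 windows found for the list and in 33.8% of 32851 windows of all genes, and the motif was chosen after the fall had been seen.
Ube2c: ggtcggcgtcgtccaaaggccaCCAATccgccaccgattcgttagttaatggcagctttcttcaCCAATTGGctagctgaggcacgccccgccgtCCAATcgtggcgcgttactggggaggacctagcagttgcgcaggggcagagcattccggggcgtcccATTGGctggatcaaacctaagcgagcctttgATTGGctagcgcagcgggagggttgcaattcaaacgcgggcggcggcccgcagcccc
Ttk: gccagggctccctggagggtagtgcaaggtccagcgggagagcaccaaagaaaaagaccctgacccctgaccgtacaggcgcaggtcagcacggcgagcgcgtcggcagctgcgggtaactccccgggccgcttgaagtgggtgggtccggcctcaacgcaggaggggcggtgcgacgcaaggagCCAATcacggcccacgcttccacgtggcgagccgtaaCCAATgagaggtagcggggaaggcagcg

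Of 11 genes of milk protein uptake 3 rose, against 8.89% of all genes called higher, and none fell. Cubn, the cubilin receptor, went from 423, 754 and 687 CPM at day 8 to 1312, 1326 and 1509 CPM at week 2 (log2 fold change 1.15 ± 0.24 SE, edgeR adjusted p = 0.00194). The adaptor Dab2 and the neonatal Fc receptor Fcgrt, which carries maternal antibody, rose by 0.84 and 0.75 (edgeR adjusted p = 0.0387 and 0.0428). No other gene of the list was called. Amn, the partner of cubilin, had 0.71 (edgeR adjusted p = 0.0897), and the polymeric immunoglobulin receptor Pigr had -0.02 (edgeR adjusted p = 0.983). Cubn was not called without day 8 no. 1, at 0.93. Dab2 lost its call without any 1 of the 6 libraries, and Fcgrt without any but week 2 no. 2. None of the 11 was called by edgeR with all 48 libraries.

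Of 42 lysosomal genes tested 19 rose and none fell, the median log2 fold change was 0.53, and 41 of 42 values were positive. In 35 of the 42 every week 2 library lay above every day 8 library, against 21.7% of all genes. Man2b1, which trims mannose from glycoproteins, went from 117, 197 and 188 CPM to 361, 344 and 401 CPM (log2 fold change 1.14 ± 0.20 SE, edgeR adjusted p = 0.000449). Day 8 no. 1 was the lowest library in Man2b1.

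Proteases were among the most abundant lysosomal transcripts. Ctsl, cathepsin L, went from 1550, 1694 and 1699 CPM to 3548, 2504 and 3068 CPM (log2 fold change 0.88 ± 0.27 SE, edgeR adjusted p = 0.023). Ctsa, the protective protein of several glycosidases, rose by 0.87 and Ctsd, cathepsin D, by 0.70 (edgeR adjusted p = 0.00811 and 0.0253). Tfeb, the transcription factor that drives lysosome genes, had 0.42 (edgeR adjusted p = 0.156). The summed list stood at 18247 to 20854 CPM at week 2 and 10397 to 13545 CPM at day 8, without overlap. Man2b1 was called whichever library was left out. The count of rises was less steady: 12 without week 2 no. 1, 12 without week 2 no. 2, 6 without week 2 no. 3, 3 without day 8 no. 1, 1 with all 48 libraries and none by edgeR with the mitochondrial share as a covariate. Ctsa, Ctsd and Ctsl were not called without week 2 no. 3 or day 8 no. 1, and Ctsd and Ctsl not without week 2 no. 1.

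Ctsa and Ctsd are shown for the element GTCACGTG, read by TFEB in lysosomal promoters. It contains the E-box searched above. Capitals mark it, or its reverse complement CACGTGAC, in the 250 bases before the start. The Ctsa window, 1 of 2 for that gene, is chr2:164833523-164833772 on the plus strand, and the Ctsd window is chr7:142387828-142388077 on the minus strand, in GRCm38.p6 from RefSeq. The element occurred in 21.6% of the 37 windows of the list and in 1.85% of all windows. It lay in 4 of the 15 genes that rose and had a window, Ctsa, Ctsd, Gla and Lamp1.
Ctsa: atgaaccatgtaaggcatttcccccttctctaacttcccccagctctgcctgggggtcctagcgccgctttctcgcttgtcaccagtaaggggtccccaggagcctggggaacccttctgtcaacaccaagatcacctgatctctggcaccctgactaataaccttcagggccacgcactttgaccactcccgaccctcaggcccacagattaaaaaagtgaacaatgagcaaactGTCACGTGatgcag
Ctsd: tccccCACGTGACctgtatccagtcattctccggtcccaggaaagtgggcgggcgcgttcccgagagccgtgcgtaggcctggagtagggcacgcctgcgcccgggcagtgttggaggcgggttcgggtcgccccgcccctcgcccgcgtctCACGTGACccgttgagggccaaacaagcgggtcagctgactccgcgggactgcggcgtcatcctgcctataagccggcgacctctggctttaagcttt

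**Figure D3:**
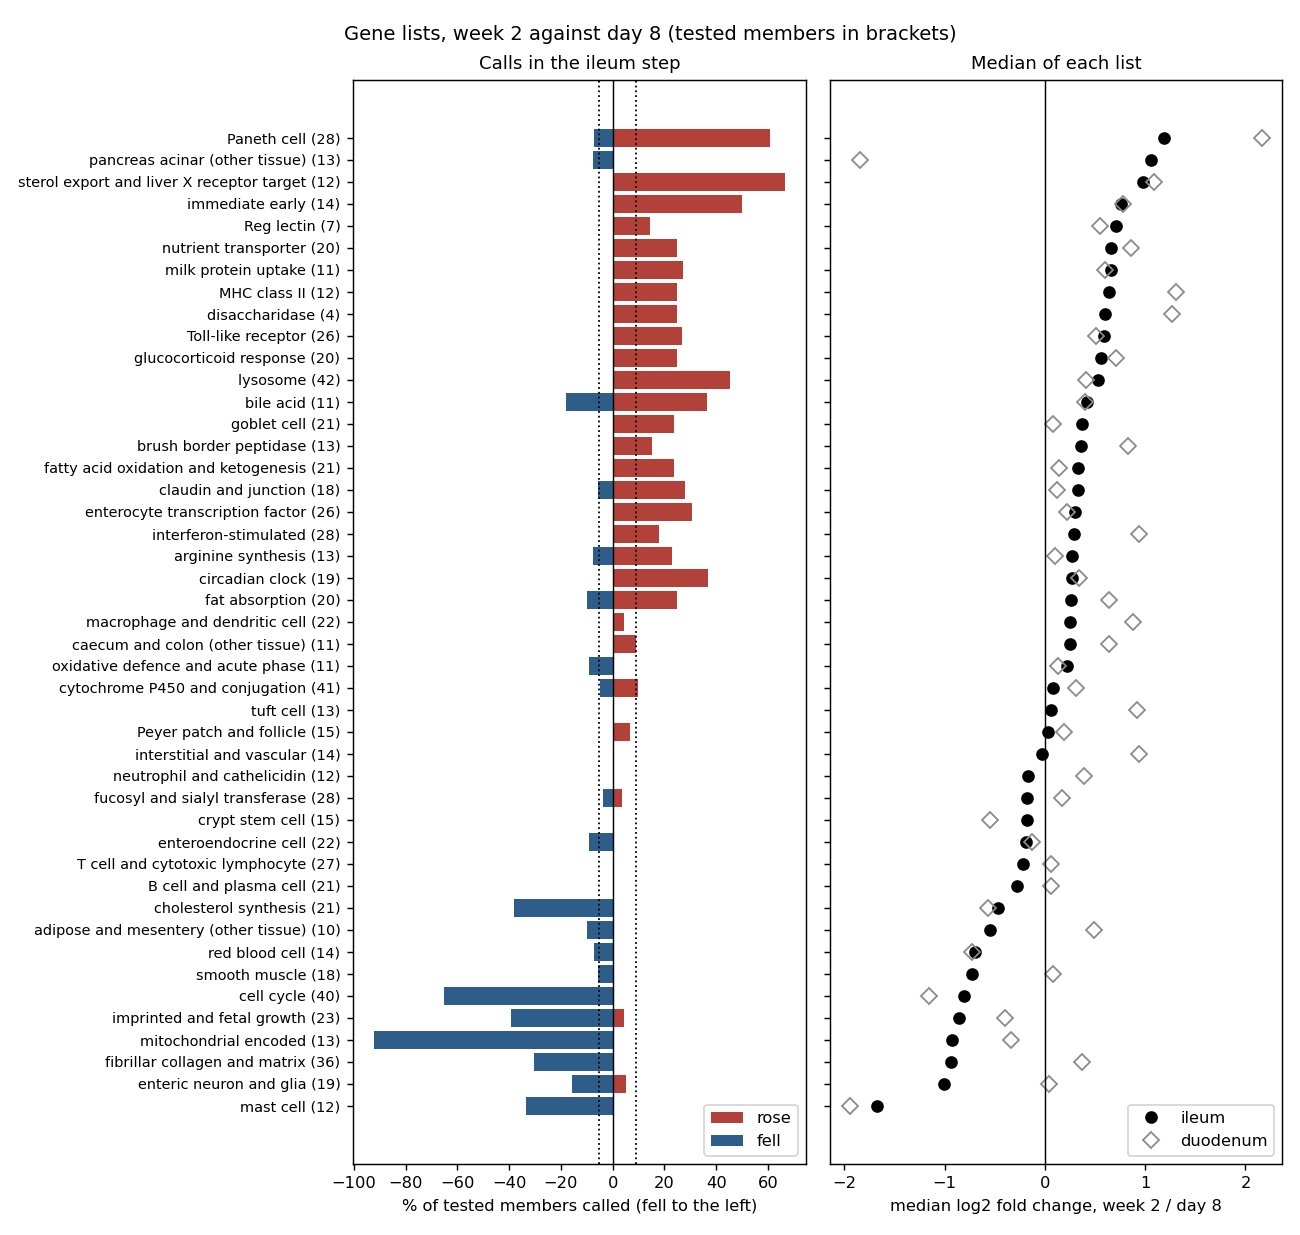
Left: percentage of each gene list's tested members called higher (red, right) or lower (blue, left) in the ileum at week 2, with dotted lines at 8.89% and 5.16%, the shares over all genes. Right: median log2 fold change of each list in ileum (filled circles) and duodenum (open diamonds). The sterol export and Paneth cell lists have 8 of 12 and 17 of 28 members called higher, and the mitochondrial and cell cycle lists 12 of 13 and 26 of 40 called lower.

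Bile acid handling split. Fgf15, the hormone that the ileum sends to the liver to restrain bile acid synthesis, stood at 251, 335 and 271 CPM at week 2, against 72.6, 84.5 and 73.9 CPM at day 8 (log2 fold change 1.89 ± 0.63 SE, edgeR adjusted p = 0.0431). Slc51a, a subunit of the basal bile acid exporter, rose by 0.91 ± 0.19 (SE, edgeR adjusted p = 0.00168), and the export pump Abcc2 by 1.09 ± 0.24 (SE, edgeR adjusted p = 0.00286). Fabp6, which binds bile acids inside the cell, fell from 42.4, 17.5 and 27.7 CPM to 1.79, 8.21 and 4.56 CPM (-2.56 ± 0.75 SE, edgeR adjusted p = 0.0229). Its uptake partner Slc10a2 was low at both ages, with means of 1.26 and 1.38 CPM, and the receptor Nr1h4 (FXR) had 0.13 (edgeR adjusted p = 0.73). Of the 11 genes 4 rose and 2 fell, against 8.89% and 5.16% of all genes. Slc51a was called with each library left out, and Fgf15 with none of the 6 left out, at log2 values of 1.75 to 1.97. Abcc2 (0.97) and Fabp6 (-2.21) lost their calls without day 8 no. 1, and Fabp6 also without week 2 no. 1 or no. 3.

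The fatty acid binding proteins Fabp1 and Fabp2 fell. Fabp2, the intestinal form that ferries fatty acids through the enterocyte, went from 3404, 1519 and 2047 CPM at day 8 to 723, 531 and 802 CPM at week 2 (log2 fold change -1.76 ± 0.25 SE, edgeR adjusted p = 0.000102). It was called under each alternative. Fabp1, the liver form, had -1.87 ± 0.52 (SE, edgeR adjusted p = 0.016), from 1408, 584 and 845 CPM to 365, 136 and 273 CPM, and was not called without day 8 no. 1 (-1.49), week 2 no. 2 or week 2 no. 3. Creb3l3, a transcription factor of lipid handling, rose by 0.96 and Plin2, a coat of lipid droplets, by 0.46 (edgeR adjusted p = 0.00419 and 0.0199). Of 20 fat absorption genes 5 rose and 2 fell, against 8.89% and 5.16% of all genes. The rises numbered 0 without day 8 no. 1 and 1 to 3 without any other 1 library.

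Fat-burning genes rose in 5 of 21, against 8.89% of all genes called higher, with none falling. Ppara, the receptor that drives the pathway, rose by 0.89 (edgeR adjusted p = 0.00235). Slc25a20 and Cpt2, of carnitine transport into mitochondria, rose by 0.48 and 0.49 (edgeR adjusted p = 0.00654 and 0.0103). None of the 5 was called without day 8 no. 1, and 2 were without week 2 no. 3.

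Of 4 enzymes that split disaccharides, 1 rose and none fell. Lct, lactase, went from 554, 883 and 817 CPM to 2425, 1738 and 2297 CPM (log2 fold change 1.52 ± 0.48 SE, edgeR adjusted p = 0.0321), and the call was lost without any 1 of the 6 libraries. Sis, sucrase, was low at both ages: 17.1, 21.7 and 23.0 CPM at week 2, against 44.8, 20.9 and 27.7 CPM at day 8 (-0.59 ± 0.30 SE, edgeR adjusted p = 0.195). In a list of 13 peptidases 2 rose and none fell, not far from the 8.89% of all genes called higher. These were Ace and Mep1a, by 1.00 and 0.88 (edgeR adjusted p = 0.0315 and 0.032). Both were lost without week 2 no. 1, week 2 no. 3 or day 8 no. 1, and Mep1a further without week 2 no. 2 or day 8 no. 3.

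Amino acid carriers led the transporters. Of 20 nutrient transporters 5 rose and none fell. In 15 of 20 the week 2 libraries all lay above the day 8 libraries, against 21.7% of all genes. Slc3a2, Slc7a9, Slc3a1 and Slc6a19 rose by 0.74, 0.66, 0.79 and 0.76 (edgeR adjusted p = 0.00272, 0.00641, 0.0106 and 0.016). The chains of Slc3a1 and Slc7a9 pair to carry cystine, and Slc6a19 carries neutral amino acids. The count was 0 without day 8 no. 1, 2 without week 2 no. 3 and 3 without week 2 no. 1. Arginine synthesis, by which the suckling gut supplies arginine that milk lacks, gave 3 rises and 1 fall among 13. Prodh, proline dehydrogenase, rose by 0.83 ± 0.16 (SE, edgeR adjusted p = 0.000945) and Nags, which makes the activator of the urea cycle, by 0.50 (edgeR adjusted p = 0.00492). Otc, which makes citrulline, fell by 0.62 on the log2 scale (edgeR adjusted p = 0.0107). Prodh held with each library left out, but Nags (0.45) and Otc (-0.46) were not called without day 8 no. 1.

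Transcription factors of the enterocyte rose in 8 of 26 cases, against 8.89% of all genes called higher, with no falls. Hnf4a, a master regulator of absorptive cells, went from 402, 509 and 458 CPM to 692, 595 and 669 CPM (log2 fold change 0.51 ± 0.12 SE, edgeR adjusted p = 0.00395). Rxra, the partner of nuclear receptors including those for bile acids and oxysterols, rose by 0.56 (edgeR adjusted p = 0.00416). Both lost their calls without day 8 no. 1 (0.42 each) or week 2 no. 3 (0.47 and 0.50). The list count was 1 and 3 in those fits.

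Claudins moved in both directions. Cldn4, a claudin that tightens the paracellular path, went from 55.5, 70.2 and 71.1 CPM to 150.4, 142 and 153 CPM (log2 fold change 1.18 ± 0.25 SE, edgeR adjusted p = 0.00215). Cldn1 fell from 0.991, 1.01 and 1.94 CPM to 0.441, 0.443 and 0.130 CPM (-1.93 ± 0.35 SE, edgeR adjusted p = 0.000613), a low level at both ages. F11r, an adhesion molecule of tight junctions, and Ocln, occludin, rose by 0.61 and 0.55 (edgeR adjusted p = 0.00425 and 0.0102). In the list of 18, 5 rose and 1 fell, and 14 lay wholly above day 8, against 21.7% of all genes. Cldn4 and Cldn1 were called whichever library was left out. The rises numbered 1 without day 8 no. 1, 2 without week 2 no. 1 or no. 3, and 3 without week 2 no. 2. They numbered 0 with all 48 libraries and 0 with the mitochondrial share as a covariate.

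Genes of the growing bowel wall fell. Of 36 collagen and matrix genes 11 fell and none rose, with a median log2 fold change of -0.93 and 33 negative values. Plod2, which hydroxylates collagen for cross-linking, went from 19.7, 18.2 and 18.6 CPM to 7.42, 7.32 and 6.61 CPM (-1.40 ± 0.26 SE, edgeR adjusted p = 0.000697), and the libraries of each age lay within 2 CPM of each other. Thbs2, a matrix thrombospondin, went from 2.59, 2.599 and 3.65 CPM to 0.745, 0.612 and 0.618 CPM (-2.16 ± 0.38 SE, edgeR adjusted p = 0.00051). Col1a1, the main fibrillar collagen, read 96.7, 53.7 and 110.2 CPM at day 8 and 35.2, 42.0 and 19.001 CPM at week 2 (-1.44 ± 0.45 SE, edgeR adjusted p = 0.0298). The basement membrane collagens Col4a1 and Col4a2 had -0.01 and 0.20, not called.

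Falls numbered 6 without week 2 no. 1, 4 without week 2 no. 3, 5 without day 8 no. 1 and 5 without day 8 no. 3. Plod2, Thbs2, Postn and the fibrillin Fbn2 were called each time, and Col1a1 was not in any of those 4 fits. They numbered 2 with the mitochondrial share as a covariate and 1 with all 48 libraries. Summed, the list stood at 646 to 1132 CPM at day 8, highest in no. 3, and 400.5 to 624 CPM at week 2, lowest in no. 3. Smooth muscle markers summed to 529 to 632 CPM at week 2 and 565 to 686 CPM at day 8. Most of that was Mylk and Tpm1, with log2 fold changes of 0.13 and -0.01. In the list 1 of 18 fell, and only Mylk and Hspb6 (0.05) had positive values. Myh11, Actg2 and Acta2 had -1.31, -1.60 and -1.12, not called (edgeR adjusted p = 0.152, 0.0815 and 0.15). Nerve and glia genes gave 3 falls and 1 rise among 19: Vip and Elavl4 were among the falls, with log2 values of -3.48 and -1.97, both at levels under 2.5 CPM in every library, and Ret rose by 0.96 (edgeR adjusted p = 0.00693, 0.0139 and 0.00735 for Vip, Elavl4 and Ret). Vip was called with each library left out, and Elavl4 and Ret were not without day 8 no. 1. Of 10 genes of fat and mesentery 1 fell, the mesothelial marker Upk3b, from 7.38, 6.68 and 12.9 CPM to 2.18, 3.84 and 1.27 CPM (log2 fold change -1.88 ± 0.50 SE, edgeR adjusted p = 0.0108). Its call was lost without week 2 no. 1 or no. 3 or day 8 no. 3. Wt1, also of mesothelium, had -1.70 without overlap between the ages (edgeR adjusted p = 0.0996), and Msln had 0.04. That list summed to 798 to 1282 CPM at week 2 and 469 to 660 CPM at day 8, most of it Pck1, which enterocytes also express, and Adipoq was at 0. How much muscle, mesothelium and outer wall each piece held was not tested.

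Genes of fetal growth fell, in 9 of 23 cases against 5.16% of all genes called lower, with 1 rise and a median of -0.86. Hmga2, a chromatin protein of growing tissue, went from 32.1, 31.7 and 26.0 CPM to 16.8, 16.3 and 16.4 CPM (log2 fold change -0.86 ± 0.21 SE, edgeR adjusted p = 0.00574). The imprinted genes Mest and Meg3 went from means of 6.64 and 76.9 CPM to 1.85 and 31.8 CPM (-1.84 and -1.27, edgeR adjusted p = 0.01 and 0.00867). Igf2bp1, which steadies growth messengers, fell by 1.34 on the log2 scale (edgeR adjusted p = 0.0101). Several of these calls did not hold with 1 library fewer. Without week 2 no. 3, 2 fell, and Mest (-1.81), Meg3 (-1.05) and Igf2bp1 (-1.21) were not called. Meg3 was not called without day 8 no. 1 either. The count was 4 without week 2 no. 1, 3 without day 8 no. 1 and 4 without day 8 no. 3. It was 0 with all 48 libraries and 0 with the mitochondrial share as a covariate.

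Mast cell proteases fell. Mcpt1 and Mcpt2 are the chymases of mast cells in the mucosa. Mcpt1 went from 31.9, 18.3 and 14.1 CPM to 4.33, 3.61 and 4.07 CPM (log2 fold change -2.42 ± 0.47 SE, edgeR adjusted p = 0.00124), and Mcpt2 from 23.5, 11.7 and 7.33 CPM to 3.09, 2.26 and 2.34 CPM (-2.46 ± 0.44 SE, edgeR adjusted p = 0.000613). The proteases share sequence, so reads may be split between them. Mcpt4 of connective tissue mast cells and Cpa3 fell as well, at levels of 4.46 CPM or less, by -2.27 and -2.13 (edgeR adjusted p = 0.00592 and 0.0492). The other 8 of the 12 tested were not called, among them the receptor Kit (0.18), which other cells also make. Falls numbered 3 or 4 whichever library was left out, 2 with all 48 libraries and 0 with the mitochondrial share as a covariate. Cpa3 was not called without day 8 no. 1 (-1.33) or any week 2 library.

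Among the other immune lists, MHC class II genes rose in part, and the T cell, B cell, macrophage and neutrophil lists gave few calls or none. No gene of 27 T cell and cytotoxic lymphocyte markers and none of 21 B cell and plasma cell markers was called by edgeR, and their summed levels overlapped, at 12.3 to 20.6 and 16.0 to 54.2 CPM at week 2 and 15.7 to 23.8 and 33.8 to 52.4 CPM at day 8. Of 12 genes of MHC class II presentation 3 rose, against 8.89% of all genes called higher, and none fell. Ctss, the protease that trims the invariant chain, went from 170, 184 and 198 CPM to 391, 331 and 370 CPM (log2 fold change 0.98 ± 0.20 SE, edgeR adjusted p = 0.00134), called with each library left out. H2-Aa and H2-Eb1 rose by 1.01 and 0.99 (edgeR adjusted p = 0.0329 and 0.045), and H2-Eb1 lost its call without any 1 library, H2-Aa without any but week 2 no. 3. Cd74, H2-Ab1 and Ciita had 0.90, 0.84 and 0.67 without overlap between the ages, not called (edgeR adjusted p = 0.0977, 0.0646 and 0.239). H2-Ob, H2-Eb2 and H2-DMb2 had negative values, of -0.38, -0.40 and -0.34, not called either. Mertk, which takes up dying cells, was the 1 riser of 22 macrophage and dendritic cell genes (0.63, edgeR adjusted p = 0.00723), not called without day 8 no. 1 or week 2 no. 1 or no. 3. No neutrophil gene of 12 was called by edgeR, while 2 had an unadjusted p under 0.05 and DESeq2 called 1 fall. For the T cell list those counts were 4 and 1, the DESeq2 call being a fall, and for the B cell list both were 0.

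Genes that signal in the sensing of microbes and viruses rose in part. Of 26 genes of Toll-like receptors and their signalling 7 rose, against 8.89% of all genes called higher, and none fell. Tirap and Ticam1, the adaptors of the MyD88 and TRIF branches, rose by 0.61 ± 0.14 and 0.75 ± 0.17 (SE, edgeR adjusted p = 0.00387 and 0.00308), and Tollip, a restraint on them, by 0.68 ± 0.15 (SE, edgeR adjusted p = 0.00267). Tirap read 21.6, 21.8 and 21.6 CPM at week 2, against 13.6, 15.3 and 13.8 CPM at day 8, and was called whichever library was left out. The list held 3 rises without week 2 no. 1, 3 without week 2 no. 3 and 1 without day 8 no. 1. Of 28 interferon-stimulated genes 5 rose, against 8.89% of all genes called higher, and none fell. The RNA sensor Ddx58 led the list (0.57 ± 0.12 SE, edgeR adjusted p = 0.00253). The count of rises was 0 without day 8 no. 1, 1 without week 2 no. 1, 2 without day 8 no. 2 and 3 without week 2 no. 2 or no. 3. Ddx58 had 0.48 and was not called without day 8 no. 1.

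The duodenum was asked next whether the step was particular to the ileum. There 5112 of the 21617 genes (23.6%) were called over the same ages, 2210 higher (10.2%) and 2902 lower (13.4%). With all 48 libraries 1528 were (7.31%), 734 higher (3.51%) and 794 lower (3.80%). By contrast 158 genes (0.731%) had steps that differed between the regions at an adjusted p under 0.05 by edgeR, 100 with the higher value in the ileum (0.463%) and 58 with the lower (0.268%). With all 48 libraries 3 differed (0.0144%), 1 higher (0.00478%) and 2 lower (0.00957%). The 40-library count was 11 to 167 when each of the 12 libraries was left out in turn, lowest without duodenum day 8 no. 1 and 167 without ileum day 8 no. 2; the 10 other libraries each left 92 or fewer. A fit of only the groups compared gave 703, DESeq2 601, the replicate block 81 and the mitochondrial share as a covariate 28. The sterol, glucocorticoid, clock, Paneth, lysosome, cell cycle and mast cell lists held no gene with a called difference, and cell cycle genes fell in 40 of 40 cases in the duodenum. With 0.731% of all genes called, most lists this short would hold none, so this does not show that the steps were alike. Differences inside them went both ways, such as -1.43 for Defa30, -1.04 for Sgk1 and 0.56 for Per1, none called. Whether an ileum and a duodenum sample of the same number came from 1 mouse is not given, and the fit treats them as separate.

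The genes below were picked for this difference, so the values describe it. Ppef1 had the largest: it fell in the ileum and rose in the duodenum, from a mean of 0.324 CPM to 3.04 CPM (log2 fold change 3.22, edgeR adjusted p = 9.14e-05), a difference of -6.24 ± 0.73 (SE, edgeR adjusted p = 3.65e-05). Zswim9, a zinc finger gene, did the reverse. In the ileum it read 5.27, 10.1 and 32.0 CPM at week 2, against 3.08, 4.79 and 4.38 CPM at day 8, in the duodenum its means were 4.44 and 14.1 CPM, and the difference was 3.60 ± 0.56 (SE, edgeR adjusted p = 0.0024). Its ileal call rested on week 2 no. 3, without which the log2 fold change was 0.88. Pid1, a blunter of insulin signalling, fell by 0.87 in the ileum and rose by 0.88 in the duodenum on the log2 scale (difference -1.75 ± 0.31 SE, edgeR adjusted p = 0.009).

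The regions also differed in Sis and Fabp2. Sis rose in the duodenum from a mean of 24.8 CPM to 133 CPM (log2 fold change 2.42 ± 0.31 SE, edgeR adjusted p = 4.93e-06) and did not pass in the ileum, a difference of -3.01 ± 0.43 (SE, edgeR adjusted p = 0.00073). Fabp2 read means of 2111 and 2610.5 CPM in the duodenum at day 8 and week 2 (0.31, edgeR adjusted p = 0.423), so the regions differed by -2.07 ± 0.35 (SE, edgeR adjusted p = 0.00674). Both differences, and those of Ppef1, Zswim9 and Pid1, were called with each of the 12 libraries left out in turn. With all 48 libraries those of Ppef1 and Pid1 were not (edgeR adjusted p = 0.251 and 0.0669). Bspry, Josd1 and Rab15, a calcium-linked scaffold, a deubiquitinase and a membrane traffic protein, had differences of 1.02, 0.76 and 0.75 and ileal steps of 0.20, 0.34 and 0.11. Those of Josd1 and Rab15 were lost without 9 and 6 of the 12 libraries.

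**Figure D4:**
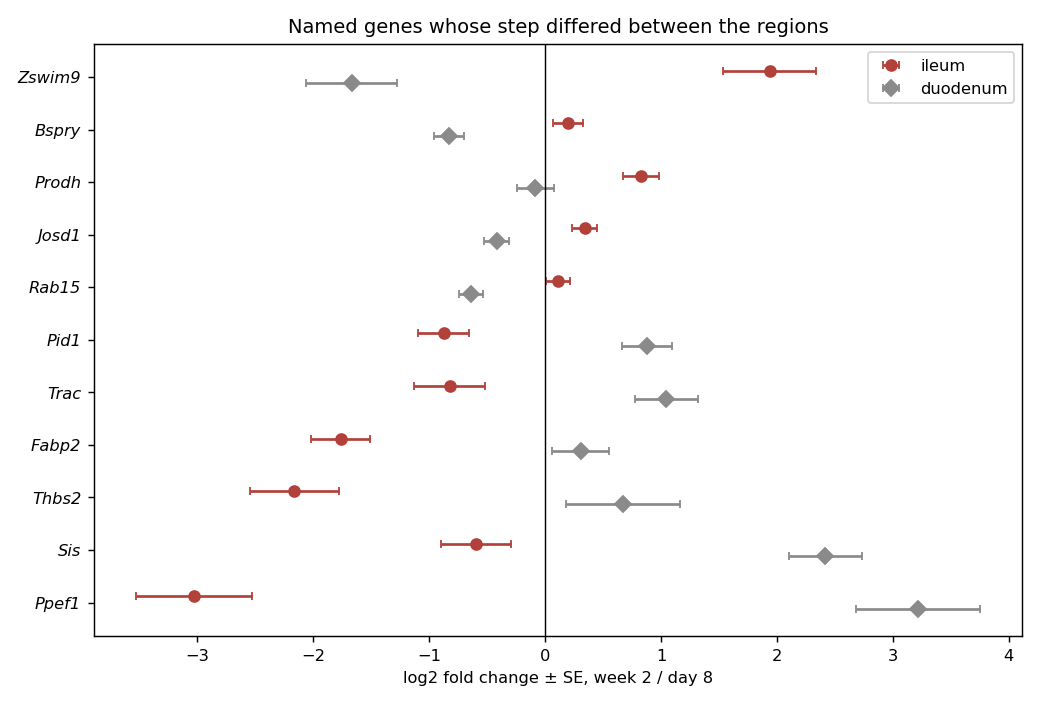
Log2 fold change ± SE from day 8 to week 2 in ileum (red circles) and duodenum (grey diamonds) for the 11 named genes whose steps differed at an adjusted p under 0.05. Ppef1, Sis and Fabp2 lie lower in the ileum, and Zswim9 lies higher.

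The wall lists moved apart by their medians. Collagen and matrix genes had a median of -0.93 in the ileum and 0.37 in the duodenum, where 7 rose and 1 fell. The difference was called for 3 of the 36, Thbs2, Lox and Col18a1. For Thbs2 it was -2.83 ± 0.62 (SE, edgeR adjusted p = 0.0282), and the call was lost without 8 of the 12 libraries in turn, among them day 8 no. 1 of the ileum. Trac, the T cell receptor alpha constant gene, differed by -1.87 ± 0.41 (SE, edgeR adjusted p = 0.0292), with ileal levels of 2.18, 1.33 and 1.76 CPM at week 2, against 3.63, 2.50 and 3.20 CPM at day 8. Prodh differed by 0.91 ± 0.23 (SE, edgeR adjusted p = 0.0449). The calls for Trac and Prodh were lost without 9 and 12 of the 12 libraries.

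**Figure D5:**
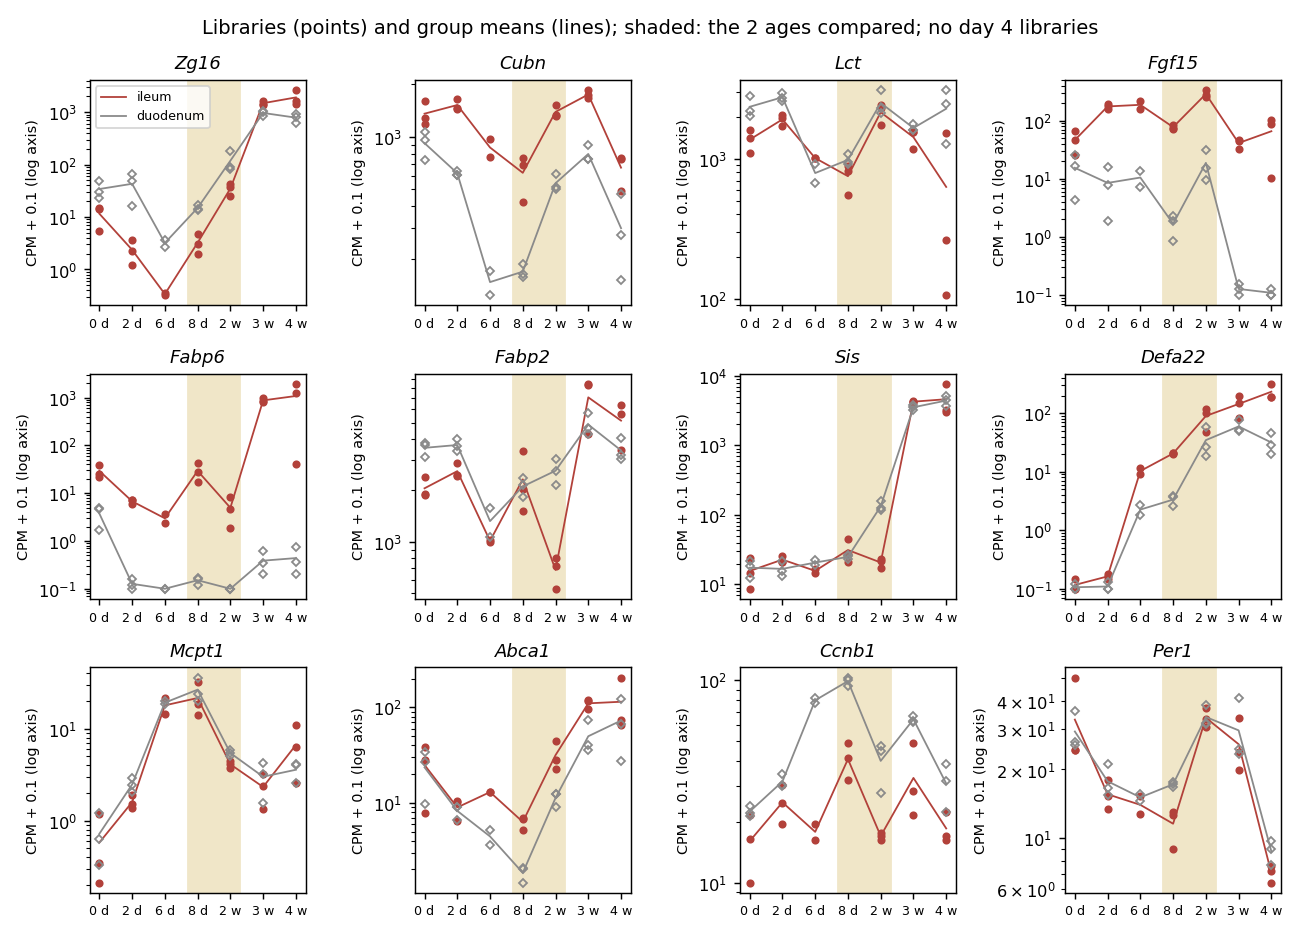
CPM plus 0.1 on log axes for 12 genes at 7 ages, equally spaced, in ileum (red) and duodenum (grey), with points for libraries and lines through group means. The shaded band marks day 8 and week 2. The day 4 libraries and day 6 no. 3 are not drawn.

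Placed among the other ages, the step took several forms. These levels are a description. Zg16 had ileal means of 11.5 CPM at day 0, 3.13 CPM at day 8, 34.9 CPM at week 2 and 1481 CPM at week 3. Defa22 was at 0.0162 CPM on average at day 0, 10.2 CPM at day 6, 20.5 CPM at day 8, 90.1 CPM at week 2 and 234 CPM at week 4. Abca1 was at 6.21 CPM at day 8, between 24.8 CPM at day 0 and 110.3 CPM at week 3.

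The mean level of other genes went both up and down over the ages. Cubn stood at a mean of 1350.2 CPM at day 0, 621 CPM at day 8 and 1382 CPM at week 2, and Lct at 1373, 751 and 2153 CPM. Fabp6 went from 29.2 CPM at day 8 to 4.85 CPM at week 2 and 877 CPM at week 3, and Fabp2 from 2323 to 685 and then 7024 CPM. Sgk1 was at 489 CPM at day 0, 81.7 CPM at day 8, 261 CPM at week 2 and 539 CPM at week 3. Mcpt1 was high at day 6 and day 8, at means of 17.8 and 21.5 CPM, with 1.49 CPM at day 2 and 4.00 CPM at week 2. Ccnb1 was highest of the 7 ages at day 8, at 40.7 CPM, and lay between 16.0 and 32.9 CPM at the others.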

How the data were processed

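Total RNA from whole ileum was sequenced on an Illumina NovaSeq, per the labels' protocols. The submitters' processing notes list STAR 2.6.1d, Salmon 0.14.2, DESeq2 1.30.1 and genome build mm10, with no role for each; the annotation release is not given in the sources used here. The deposited main table holds estimated counts per gene for 54532 identifiers, 51106 of them with a symbol. These estimated counts were tested as deposited, being whole already. The deposited ileum table of normalized counts (a signal: each count over 1 factor per library) served only for limma alternatives.

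The comparison was fitted with edgeR 4.0.16 (R 4.3.3; TMM scaling, filterByExpr, quasi-likelihood, Benjamini-Hochberg adjustment over 21617 genes) in 40 libraries of 14 region and age groups. The 8 others, of day 4 and day 6 no. 3, are absent from the authors' normalized tables. The fitted groups share 1 estimate of spread, and SE is the log2 fold change over the square root of F. DESeq2 1.42.0 and limma 3.58.1 gave alternatives. The fits were tested on simulated counts.

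Members and gene lists were chosen with earlier results of these data known. Genes were named as the 10 largest called changes each way among genes whose libraries do not overlap and whose higher group has a mean of at least 5 CPM, up to 4 called genes by p in each list (or the 1 with the smallest p where none was called), and up to 4 step differences by p each way; unnamed gene models, pseudogenes and sex genes were left out of the extremes. Members of the 2 added lists, and Fgf15, Ccnb1, Mki67, Lyz1, Itln1, Mptx1, Mptx2, Fos, Ctsl, Ctsa, Ctsd, Col1a1, Per2, Bhlhe40 and Nr3c2, were named after their values had been seen, as were genes given as not called. Some genes that the naming rule selects are not reported here.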

Additional observations from a re-analysis of the deposited data

Results flagged for a closer look

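The steps of 158 genes differed between ileum and duodenum by edgeR's test of the difference, and 11 of the named genes were among them. Ileum minus duodenum, on the log2 scale, the differences were -6.24 for Ppef1, -3.01 for Sis, -2.83 for Thbs2, -2.07 for Fabp2, -1.87 for Trac and -1.75 for Pid1. They were 3.60 for Zswim9, 1.02 for Bspry, 0.91 for Prodh, 0.76 for Josd1 and 0.75 for Rab15. Those of Ppef1, Sis, Zswim9, Fabp2 and Pid1 were called with each of the 12 libraries left out in turn.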

How the results depend on the processing

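Day 8 library no. 1, the mitochondrial share and the choice of libraries moved the counts most among the alternatives tried, and the cause was not tested. With all 48 libraries the ileum step had 417 calls (296 higher, 121 lower), the duodenum step 1528 (734 and 794) and their difference 3 (1 and 2). The 20 ileum libraries alone gave 2003 calls, 1237 of them higher. Without the filter on low counts the ileum step had 1990, 1184 of them higher, and the difference 46 (17 higher, 29 lower). On the authors' normalized values limma called 1758 (1091 and 667) with 1 added and 1701 (1059 and 642) with 0.1 added. The difference had 703 calls (310 and 393) in a fit of only the groups compared, 601 (356 and 245) with DESeq2 and 97, 43 of them higher, with RLE scaling. A filter at a mean count of 10 left 63 higher.

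Leaving out 1 library at a time gave 627 to 2882 ileum calls, 358 to 1695 higher and 269 to 1187 lower. The duodenum step gave 3035 to 4601, with 1281 to 1988 higher and 1754 to 2613 lower, and the difference 11 to 167, with 2 to 83 higher and 8 to 84 lower. Chosen after seeing the data, dropping mitochondrial-encoded genes left 102 differences, 52 of them higher. The mitochondrial share as a covariate, also chosen then, left 149 ileum calls (100 and 49) and 28 differences (5 and 23). Under that covariate Cpa3 changed sign, to a log2 value of 0.47, and 122 of 158 results for single genes lost their calls. Without day 8 no. 1, 93 of 158 did, and with all 48 libraries 112 of 158.

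The replicate numbers were not taken as pairs: deviations of same-numbered ileum libraries correlated at 0.098, -0.03 and -0.024. With the number as a replicate block the ileum step had 2815 calls and the difference 81 (48 and 33), and 10 of 158 single-gene results lost their calls.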
